A study of Homo sapiens with 4 samples.

Results

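TMEM132D-AS1 and lnc-GATD1-2 are 2 long noncoding RNA (lncRNA) genes of the 46902 listed in a comparison of a lung-selected breast cancer subline with its parent. They were chosen because both were measured in every library and yet differed more than 10-fold between the lines, in opposite directions. All rows with these names were taken, which gave 16 isoform rows for TMEM132D-AS1 and 1 for lnc-GATD1-2, 17 of 104786 rows. Because the levels in the 2 lines chose the genes, the difference between the lines is given here as a description and carries no p-value.

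MDA-MB-231-P3 is a highly metastatic subline, and MDA-MB-231 is the human triple-negative breast cancer cell line from which it was derived. Per the labels' protocols, cells were injected into the tail veins of mice, grew as lung tumours, were expanded in culture and were injected again, through 3 rounds of selection. The labels give no drug, transgene or edited allele for either line, do not say whether the subline is a single clone, and name neither the mouse strain nor a separate culture for each library. There were 2 libraries of MDA-MB-231-P3 and 2 of MDA-MB-231, so any p-value below reflects how these libraries scattered, and that scatter may be technical. Values are FPKM, a count of fragments that the authors scaled to the length of each transcript and to the mapped reads of its library. Read depth was unknown, since no read counts were used.

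An antisense lncRNA is transcribed from the strand opposite to another gene, and may act on that gene, act elsewhere or have no known role. TMEM132D, the gene opposite TMEM132D-AS1, encodes a single-pass transmembrane protein that has been studied mainly in the brain. Names such as lnc-GATD1-2 are built from that of a nearby protein-coding gene and say nothing about function. GATD1 encodes a protein with a glutamine amidotransferase-like domain and is a subunit of the FERRY complex of early endosomes, which binds messenger RNAs.

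TMEM132D-AS1 lies on the plus strand of chromosome 12 from 129594174 to 129597839 in hg19, the build named by the submitters. It spans 3666 bases within intron 5 of TMEM132D, whose transcript TMEM132D-202 has 9 exons and runs on the minus strand. It overlaps 0 of those exons, and its 3′ end is 790.7 kb from the start of TMEM132D. The annotation, GENCODE release 44 lifted to hg19, holds 7 transcripts of it with mature lengths of 293 to 2271 bases. The numbered isoforms of the deposited table carry no coordinates, so they were not matched to these transcripts. The libraries kept strand, but whether strand was used when reads were assigned is not stated, so a part of the value from intronic RNA of TMEM132D cannot be told apart. Exons of 1 annotated transcript, TMEM132D-AS1-207 (442 bases), are shown because its 3 blocks recur, whole or in part, in most of the others. Exon 1 lies at chr12:129594238-129594302, exon 2 at chr12:129595538-129595684 and exon 3 at chr12:129597610-129597839, all on the plus strand of hg19. Capitals mark the polyadenylation hexamer AATAAA, the only motif searched; its reverse complement TTTATT was found in 0 exons.
exon 1: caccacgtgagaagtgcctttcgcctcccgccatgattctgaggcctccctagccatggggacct
exon 2: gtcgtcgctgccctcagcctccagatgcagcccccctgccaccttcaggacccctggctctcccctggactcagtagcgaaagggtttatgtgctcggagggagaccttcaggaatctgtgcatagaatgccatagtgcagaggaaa
exon 3: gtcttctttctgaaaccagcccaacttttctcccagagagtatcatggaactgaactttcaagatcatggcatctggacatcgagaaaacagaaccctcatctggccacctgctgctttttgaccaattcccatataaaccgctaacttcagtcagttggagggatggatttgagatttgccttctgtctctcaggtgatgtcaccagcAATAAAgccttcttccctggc

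The hexamer stood once, in exon 3, with its first base 21 bases from the end of the exon when that base is counted. Of 55304 annotated lncRNA transcripts of at least 230 bases, 45.5% hold AATAAA in their last 230 bases, so the match is common and is a description only. Each intron between these exons opened with GT and closed with AG on the plus strand, the usual splice dinucleotides. The GC content was 61.5% in exon 1, 58.5% in exon 2 and 46.1% in exon 3. No coordinates or sequence are given for lnc-GATD1-2, because the annotation used here has no gene of that name. GATD1 itself lies on the minus strand of chromosome 11 from 767220 to 777488 in hg19.

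**Figure D1:**
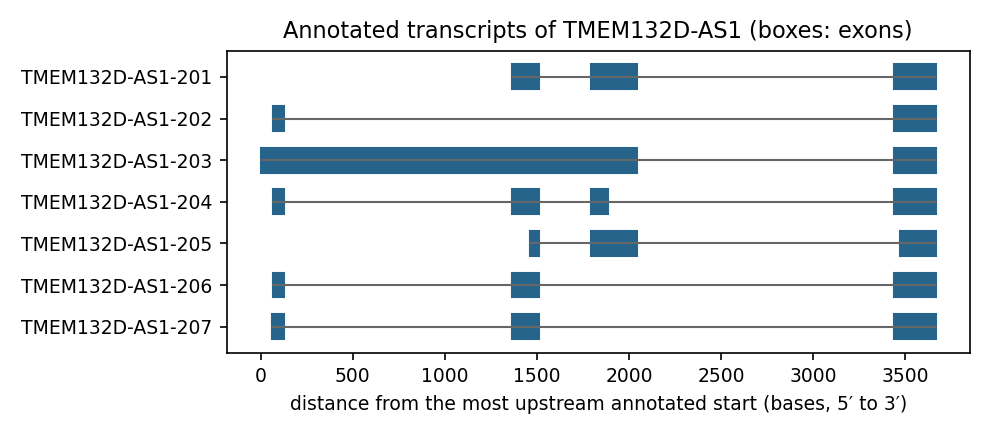
Annotated transcripts of TMEM132D-AS1 in GENCODE release 44 lifted to hg19. The horizontal axis is the distance in bases from the most upstream annotated start, boxes are exons and lines are introns; all 7 transcripts end in the same 3′ region, while 1, TMEM132D-AS1-203, carries a long unspliced first block.

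TMEM132D-AS1 was low in the subline and abundant in the parent. Summed over its 16 isoforms, it had 2.74 and 2.62 FPKM in the MDA-MB-231-P3 libraries, against 30.3 and 33.6 FPKM in the MDA-MB-231 libraries. Both subline libraries lay far below both parental libraries, and the groups did not overlap, as in 21.4% of the 6444 genes tested in this direction. The mean was 2.68 ± 0.0863 FPKM in the subline and 31.9 ± 2.33 FPKM in the parent (SD, n = 2 each), an 11.9-fold lower level in the subline. The higher subline library was still 11.1-fold below the lower parental library. With 0.5 FPKM added before taking log2, which shrinks differences between low values, the difference was -3.35 (SE 0.08 over libraries).

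The level of lnc-GATD1-2 differed the other way. Its single isoform row had 53.5 and 70.9 FPKM in the MDA-MB-231-P3 libraries, against 4.80 and 3.34 FPKM in the MDA-MB-231 libraries. Both subline libraries were high, both parental libraries were low but above 3 FPKM, and the groups did not overlap, as in 28.9% of the 6444 genes in this direction. The genes were chosen by this contrast, so nothing is read from either share. The mean was 62.2 ± 12.3 FPKM in the subline and 4.07 ± 1.03 FPKM in the parent (SD, n = 2 each), a 15.3-fold higher level in the subline. The lower subline library was 11.2-fold above the higher parental library. On the log2(FPKM + 0.5) scale the difference was 3.78 (SE 0.31 over libraries). In these bulk samples, fewer cells carrying an RNA and less of that RNA per cell cannot be told apart, for either gene.

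**Figure D2:**
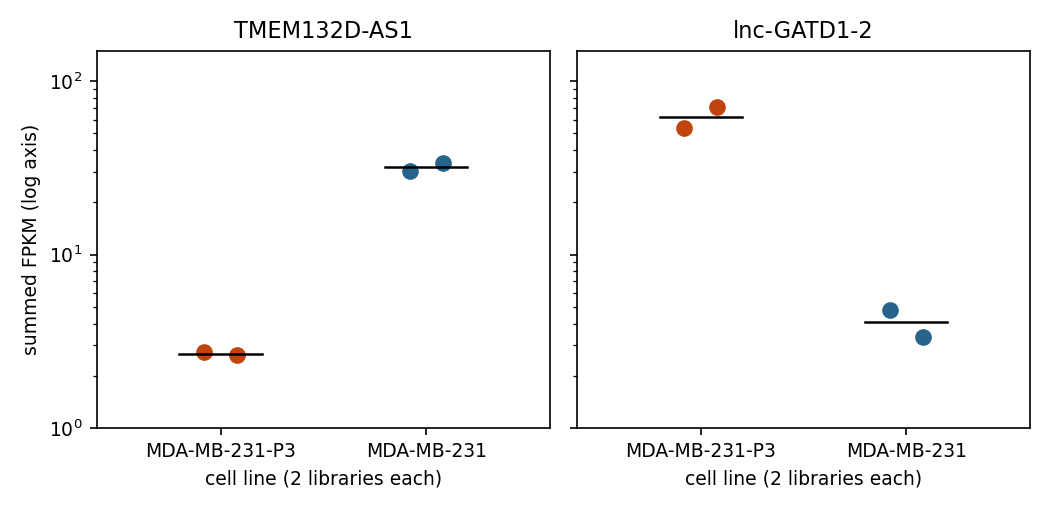
Summed FPKM of TMEM132D-AS1 (left) and lnc-GATD1-2 (right) in the 2 libraries of MDA-MB-231-P3 and of MDA-MB-231. The vertical axis is logarithmic, points are libraries and lines are means; TMEM132D-AS1 is near 2.68 FPKM in the subline and 31.9 FPKM in the parent, and lnc-GATD1-2 is near 62.2 FPKM in the subline and 4.07 FPKM in the parent.

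Ranks within a library do not depend on how libraries were scaled to each other. Ordered by FPKM among all 46902 lncRNA genes, TMEM132D-AS1 ranked 1970th and 2015th in MDA-MB-231-P3 and 241st and 222nd in MDA-MB-231. By the same order lnc-GATD1-2 was 153rd and 127th in MDA-MB-231-P3 and 1101st and 1522nd in MDA-MB-231. Each gene was therefore among the more abundant lncRNAs of one line and lay within the upper part of the list in the other.

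The rule as stated did not use the agreement of libraries within a line. On the lower side, however, lnc-SLC5A10-3 and lnc-ST14-1 also differed more than 10-fold and were not chosen. Their parental libraries differed by ratios of 4.87 and 1.74, so a choice independent of this agreement cannot be assumed. For TMEM132D-AS1 the libraries differed by a ratio of 1.05 in the subline and 1.11 in the parent. Of the 3756 lncRNA genes with at least 0.5 FPKM in every library, 90.3% had a larger gap between the subline libraries and 81.8% a larger gap between the parental libraries. For lnc-GATD1-2 the ratios were 1.32 in the subline and 1.43 in the parent, close to the medians over these genes of 1.30 and 1.39. The sum of TMEM132D-AS1 was thus repeated more closely than that of most such genes, and lnc-GATD1-2 about as closely as the middle gene. These shares are descriptions across genes of the same libraries and carry no p-value.

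Few lncRNAs that were measured throughout had a ratio this large. The floor of 0.5 FPKM itself keeps genes of low mean from reaching 10-fold, so the filter sets part of this rarity. Of the 3756 genes with at least 0.5 FPKM in every library, 1 was over 10-fold higher in the subline (0.0266%), which was lnc-GATD1-2, and 3 were over 10-fold lower (0.0799%), of which TMEM132D-AS1 was 1. The choice of the genes used this contrast, so nothing is read from these shares. Without that condition, among 6444 genes with a mean of at least 0.5 FPKM, 270 (4.19%) were over 10-fold higher and 129 (2%) over 10-fold lower, and all but 1 and 3 of these were below 0.5 FPKM in at least 1 library.

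Genes just inside and outside the 10-fold threshold were lnc-ST14-1, lnc-GRAP-7 and LINC01067. On the lower side, lnc-ST14-1 had 1.52 and 0.743 FPKM in MDA-MB-231-P3 and 15.52 and 8.91 FPKM in MDA-MB-231, 10.8-fold lower in the subline. Just outside, lnc-GRAP-7 had 79.2 and 24.7 FPKM in MDA-MB-231-P3 and 778 and 197 FPKM in MDA-MB-231, 9.38-fold lower. The third gene past the threshold, lnc-SLC5A10-3, had 117 and 38.9 FPKM in MDA-MB-231-P3 and 2030 and 417 FPKM in MDA-MB-231, 15.6-fold lower, with parental libraries that differed by a ratio of 4.87. On the higher side, the gene next below lnc-GATD1-2 was LINC01067, at 4.75 and 4.22 FPKM in MDA-MB-231-P3 and 0.518 and 0.582 FPKM in MDA-MB-231, 8.16-fold higher in the subline. No gene lay between them.

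**Figure D3:**
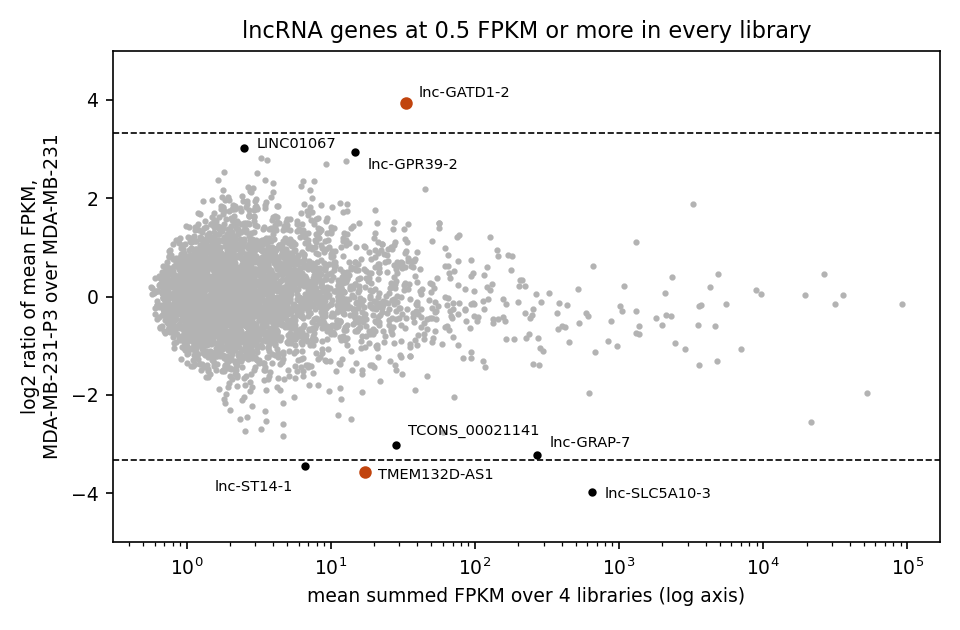
Each point is 1 of the 3756 lncRNA genes with at least 0.5 FPKM in every library. The horizontal axis is the mean summed FPKM over 4 libraries on a log scale, the vertical axis is the log2 ratio of mean FPKM (MDA-MB-231-P3 over MDA-MB-231), and dashed lines mark 10-fold; lnc-GATD1-2 is the 1 gene above the upper line, and TMEM132D-AS1 is 1 of 3 below the lower line.

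The 16 isoform rows of TMEM132D-AS1, numbered 2 to 17, divided the sum unevenly. Isoforms 5, 6, 7 and 8 held 42.9% and 54.8% of the sum in MDA-MB-231-P3, against 91.1% and 82.1% in MDA-MB-231. Together these 4 isoforms had 1.18 and 1.43 FPKM in the subline, against 27.6 and 27.6 FPKM in the parent, a 21.1-fold lower mean level. The other 12 rows summed to 1.56 and 1.18 FPKM in the subline, against 2.69 and 6.02 FPKM in the parent, a 3.17-fold lower mean level.

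By single isoform, TMEM132D-AS1:7 had 0.362 and 0.0445 FPKM in the subline, against 11.6 and 7.71 FPKM in the parent. TMEM132D-AS1:5 had 0.278 and 0.212 FPKM in the subline, against 6.32 and 6.96 FPKM in the parent. TMEM132D-AS1:8 had 0.176 and 0.463 FPKM in the subline, against 4.31 and 10.2 FPKM in the parent. The subline libraries lay below the parental ones for all of these, with mean levels 47.6-fold, 27.1-fold and 22.7-fold lower. TMEM132D-AS1:6 had 0.360 and 0.714 FPKM in the subline, against 5.38 and 2.75 FPKM in the parent, 7.56-fold lower. TMEM132D-AS1:4 had 1.00 and 0.329 FPKM in the subline, against 2.30 and 0.489 FPKM in the parent, and its groups overlapped.

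These 5 isoforms are those with a mean of at least 0.5 FPKM. In 4 of the 5 the groups did not overlap and the subline was lower, against 20.7% of the 8432 isoforms at this level in the whole table, and 3 of the 5 were over 10-fold lower, against 3.89%. The isoforms come from the contrast that chose the gene, so nothing is read from these shares. The remaining 11 rows had lower means: of all 16 rows, 8 were lower, 2 higher and 6 overlapping between the lines.

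The 2 rows that were higher in the subline were minor isoforms in the parent. TMEM132D-AS1:12 had 0.345 and 0.573 FPKM in MDA-MB-231-P3, against 0.0137 and 0.0305 FPKM in MDA-MB-231. Its subline mean of 0.459 FPKM was above those of TMEM132D-AS1:5 (0.245), TMEM132D-AS1:7 (0.203) and TMEM132D-AS1:8 (0.319). It was below those of TMEM132D-AS1:4 (0.665) and TMEM132D-AS1:6 (0.537). TMEM132D-AS1:10 had 0.121 and 0.0413 FPKM in MDA-MB-231-P3, against 0.00623 FPKM and near 0 in MDA-MB-231. Together TMEM132D-AS1:10 and TMEM132D-AS1:12 made up 17.0% and 23.5% of the gene's sum in the subline, against 0.0659% and 0.0909% in the parent. Across the table, 27.3% of the 8432 isoforms with a mean of at least 0.5 FPKM were higher in this way, and neither of these rows reached that mean.

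The split of the sum among isoforms varied within a line more than the sum itself. The most abundant isoform was a different one in each library: TMEM132D-AS1:4 in MDA-MB-231-P3 replicate 1 (36.5% of the sum), TMEM132D-AS1:6 in MDA-MB-231-P3 replicate 2 (27.3%), TMEM132D-AS1:7 in MDA-MB-231 replicate 1 (38.3%) and TMEM132D-AS1:8 in MDA-MB-231 replicate 2 (30.2%). Between the parental libraries TMEM132D-AS1:8 differed by a ratio of 2.36, TMEM132D-AS1:6 by 1.96 and TMEM132D-AS1:7 by 1.51. TMEM132D-AS1:5 differed by only 1.10, and the sum of the 4 main isoforms was 27.6 FPKM in both. Between the subline libraries TMEM132D-AS1:7 differed by a ratio of 8.13, while the gene's sum differed by 1.05.

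Some rows of TMEM132D-AS1 were present in 1 line and listed near 0 in the other. TMEM132D-AS1:16 was near 0 in both subline libraries and had 0.192 and 1.17 FPKM in the parental ones. TMEM132D-AS1:17 was near 0 in both subline libraries and in MDA-MB-231 replicate 1, and had 1.67 FPKM in MDA-MB-231 replicate 2. TMEM132D-AS1:9 and TMEM132D-AS1:11 held the same values in all 4 libraries, near 0 in the subline and 0.0488 and 1.01 FPKM in the parent. Of the 43623 rows above 0 in every library, 364 (0.834%) shared all values with another row of the same gene. Counting the pair once left the log2 difference of the sum at -3.33. Values near 0 may stand for shares that could not be estimated, so such rows are described as listed near 0 and not as absent.

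In contrast to the 16 rows of TMEM132D-AS1, lnc-GATD1-2 had 1 row, as did 72.0% of all listed genes. Its level and its isoform level are therefore the same value, and no split among isoforms could be examined.

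**Figure D4:**
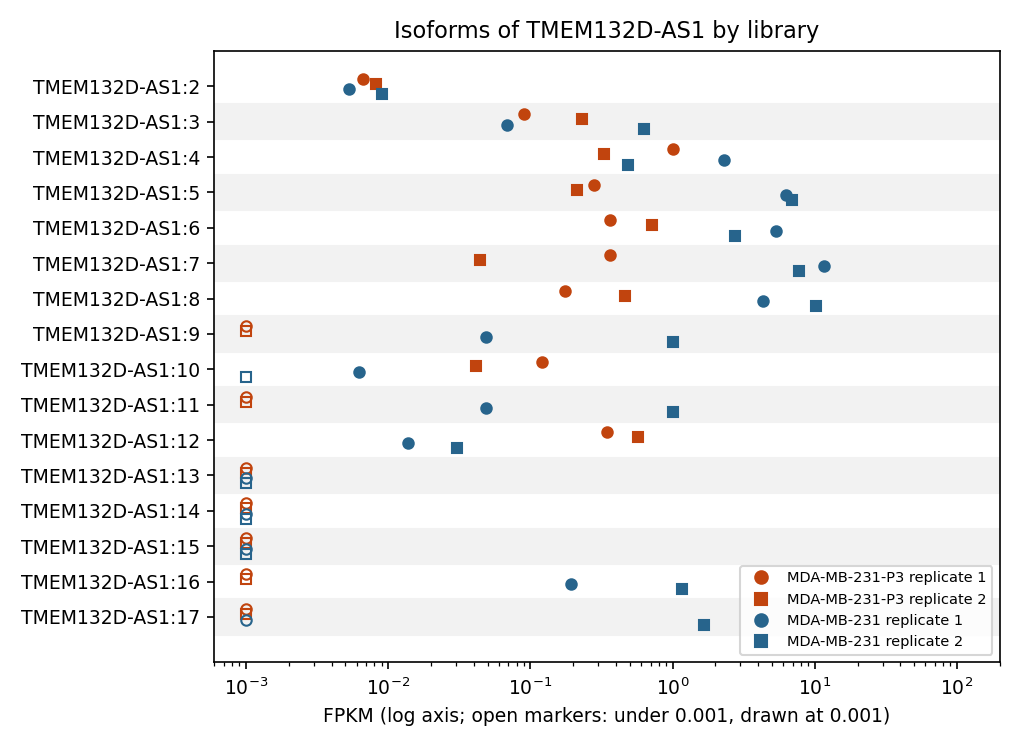
FPKM of the 16 isoforms of TMEM132D-AS1 in each of the 4 libraries, on a log axis; orange markers are MDA-MB-231-P3, blue markers are MDA-MB-231, and open markers are values under 0.001 FPKM drawn at 0.001. Isoforms 5 to 8 lie further right in the parent, while isoforms 10 and 12 lie further right in the subline.

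LncRNAs named for the same or nearby genes were listed by name and not by their values, so those with a mean of at least 0.5 FPKM were tested. The lists were nevertheless drawn up with earlier results of these data known. Of 3 other genes named for TMEM132D, TMEM132D-AS2 and lnc-TMEM132D-2 were listed at 0 in all 4 libraries. TMEM132D-AS2 is antisense to the same gene, 95.3 kb from TMEM132D-AS1. The remaining one, lnc-TMEM132D-5, had 1.83 and 1.10 FPKM in MDA-MB-231-P3, against 1.31 and 0.873 FPKM in MDA-MB-231, and the groups overlapped. Its log2 difference was 0.29 (SE 0.34, 95% interval -0.63 to 1.22, limma adjusted p = 0.686). No other row was named for GATD1 or for its older symbol PDDC1. The 3 genes named for the family members TMEM132A and TMEM132E were under 0.5 FPKM in all 4 libraries, and 2 of them were listed at 0.

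A further 86 genes were named for protein-coding genes around TMEM132D, and 52 of them were listed at 0 in all 4 libraries. The 1 that reached a mean of 0.5 FPKM was ADGRD1-AS1, antisense to the gene of an adhesion G protein-coupled receptor. This gene lies on the minus strand of chromosome 12 from 131474683 to 131478521 in hg19. That is outside the window used for the list by position below, so ADGRD1-AS1 is a neighbour by name only. ADGRD1-AS1 had 10.8 and 8.89 FPKM in MDA-MB-231-P3, against 11.1 and 8.22 FPKM in MDA-MB-231. Its groups overlapped, with a log2 difference of 0.03 (SE 0.29, 95% interval -0.75 to 0.82, limma adjusted p = 0.961). The next most abundant, lnc-RIMBP2-4, had 0 and 0.243 FPKM in MDA-MB-231-P3 and 0.990 and 0.335 FPKM in MDA-MB-231. The third, lnc-STX2-13, had 0.542 and 0.711 FPKM in MDA-MB-231-P3 and 0.0433 and 0.0536 FPKM in MDA-MB-231. Neither of these was tested, because their means were under 0.5 FPKM.

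Around GATD1, 20 genes were named for protein-coding neighbours and 8 reached a mean of 0.5 FPKM. The most abundant was lnc-POLR2L-6, named for the gene of an RNA polymerase subunit, with 3.54 and 4.16 FPKM in MDA-MB-231-P3 and 3.69 and 4.50 FPKM in MDA-MB-231 (log2 difference -0.08, 95% interval -0.80 to 0.65, limma adjusted p = 0.900). The gene lnc-POLR2L-5 had 3.29 and 4.76 FPKM in MDA-MB-231-P3 and 3.93 and 3.17 FPKM in MDA-MB-231 (log2 difference 0.15, 95% interval -0.68 to 0.97, limma adjusted p = 0.827). The gene lnc-PIDD1-2, named for the gene of a p53-induced death domain protein, had 3.85 and 2.86 FPKM in MDA-MB-231-P3 and 5.02 and 3.15 FPKM in MDA-MB-231 (log2 difference -0.23, 95% interval -1.15 to 0.69, limma adjusted p = 0.754). In all 3 the libraries of the lines overlapped. The largest differences at this locus, both positive, were those of lnc-LRRC56-1 and lnc-LRRC56-3. The gene lnc-LRRC56-1 had 1.44 and 0.791 FPKM in MDA-MB-231-P3 and 0.232 and 0.841 FPKM in MDA-MB-231 (log2 difference 0.67, 95% interval -0.58 to 1.92, limma adjusted p = 0.533). The gene lnc-LRRC56-3 had 0.818 and 0.868 FPKM in MDA-MB-231-P3 and 0.280 and 0.574 FPKM in MDA-MB-231 (log2 difference 0.55, 95% interval -0.43 to 1.54, limma adjusted p = 0.522). Of the 10 neighbours tested by name over both loci, it was the 1 whose groups did not overlap. Across all 6444 genes, 28.9% did not overlap in this direction and 21.4% in the other, so nothing is read from this count. The gene lnc-LRRC56-3 reached a mean of 0.5 FPKM only through the subline (mean 0.843 FPKM, against 0.427 FPKM in the parent).

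Over both loci, 0 of the 10 tested neighbours passed the test, 0 had an unadjusted p under 0.05 (9.5% of all genes tested were higher and 5.68% lower at that p), and the smallest limma adjusted p was 0.522. Among all 6444 genes, 2 passed in each direction (0.031%), and 0 passed with a replicate block or with a pseudocount of 1. With so few genes passing in all, 0 of 10 was likely for any 10 genes, so nothing is read from it. Nothing about the 2 chosen genes is read from this test, because their difference chose them. The median log2 difference of the 10 neighbours was 0.18, with 7 positive and 3 negative, beside 0.09 over all genes tested. Some neighbours, lnc-LRRC56-3 included, reached the mean of 0.5 FPKM only through the subline, so nothing is read from these signs. The widest interval among the 10 neighbours was that of lnc-LRRC56-1. Whether the neighbours differ from the 2 chosen genes was not tested, because the chosen genes were picked by their difference.

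**Figure D5:**
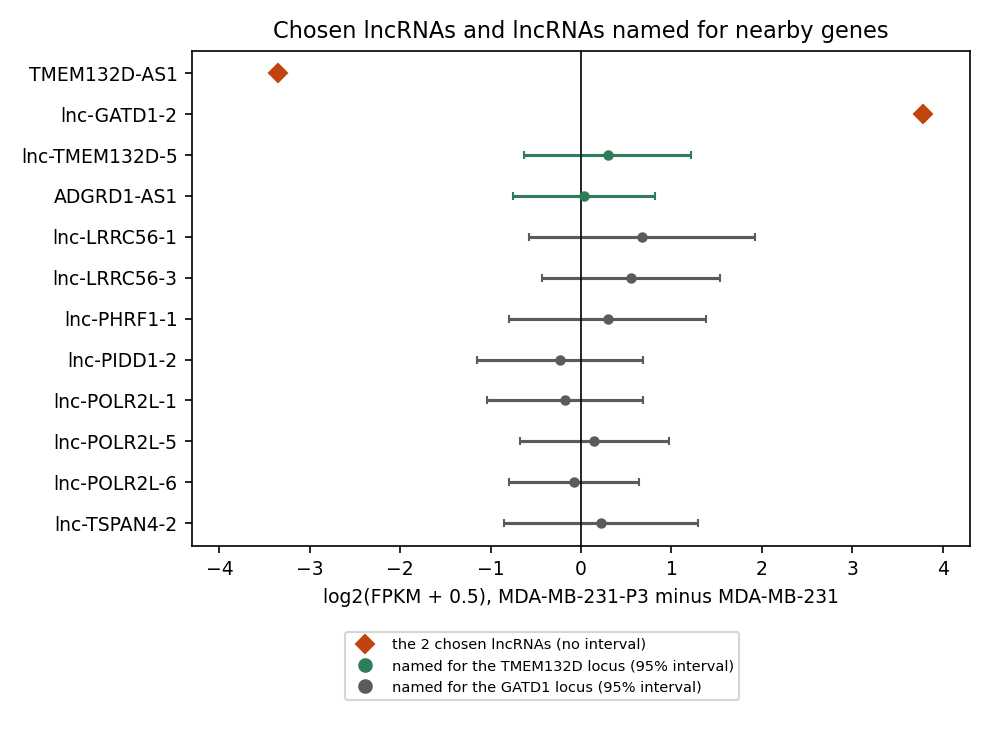
Difference between the lines on the log2(FPKM + 0.5) scale, MDA-MB-231-P3 minus MDA-MB-231, for TMEM132D-AS1 and lnc-GATD1-2 (diamonds, no interval) and for the 10 tested lncRNAs named for genes of the 2 loci (points with 95% limma intervals). All 10 intervals include 0, while the chosen genes lie at -3.35 and 3.78. The 10 were listed by name, and ADGRD1-AS1 lies outside the window of the list by position.

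A list by position was added after these results were seen. It took lncRNA genes annotated within 1000 kb of TMEM132D-AS1 or of GATD1 whose symbol was also the name of a deposited row. GATD1-DT, an annotated lncRNA on the plus strand of chromosome 11 from 777574 to 785231, had no row of that name. It lies next to GATD1 and, without such a row, was not covered under its symbol. Whether a deposited row of another name stands for it is unknown, because the rows carry no coordinates. The list held 10 genes, and the 5 near TMEM132D-AS1, TMEM132D-AS2 among them, had at most 0.0126 FPKM in any library. Near GATD1, 2 genes were tested. MIR210HG, the host of the hypoxia-linked miR-210, lies 198.8 kb from GATD1 and had 1.13 and 0.884 FPKM in MDA-MB-231-P3, against 0.240 and 0.0573 FPKM in MDA-MB-231. Its subline libraries lay above its parental ones, as in 28.9% of the 6444 genes in this direction. The log2 difference was 1.23 (SE 0.40, 95% interval 0.15 to 2.31), and it did not pass over all genes (limma adjusted p = 0.304). MIR210HG reached a mean of 0.5 FPKM only through the subline (mean 1.01 FPKM, against 0.149 FPKM in the parent). It was also singled out after its values were seen, so nothing is read from its interval. LINC01001, 627.6 kb from GATD1, had 1.88 and 1.42 FPKM in MDA-MB-231-P3, against 1.67 and 3.04 FPKM in MDA-MB-231 (limma adjusted p = 0.625).

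The genes with the most similar pattern were sought over the 4 libraries, as the smallest Euclidean distance between centred log2(FPKM + 0.5) values. For TMEM132D-AS1 the nearest were lnc-TOE1-1 (distance 0.102), lnc-VAX2-4 (0.241), lnc-SEL1L-17 (0.495), lnc-COL4A3-4 (0.529) and lnc-HABP4-10 (0.697). All 5 were at or near 0 in both subline libraries, and their parental values were between 2.27 and 6.47 FPKM. For lnc-GATD1-2 the nearest were lnc-ISM2-1 (0.337), lnc-ASAP1-7 (0.503), lnc-RNF13-6 (0.512), lnc-KANSL2-1 (0.708) and lnc-SYNE3-1 (0.749). These had 3.31 to 10.3 FPKM in the subline and at most 0.0560 FPKM in the parent. The likeness is one of the log2 difference with its pseudocount: these genes were near 0 in one line, where TMEM132D-AS1 and lnc-GATD1-2 kept a measured level.

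Totals of the libraries also differed between the lines. Isoforms above 0 numbered 57477 and 55862 in MDA-MB-231-P3 and 52357 and 50931 in MDA-MB-231. The FPKM of all rows summed to 351135 and 372689 in MDA-MB-231-P3 and to 460282 and 500086 in MDA-MB-231. Much of this gap lay in a few very abundant genes, so it is not a shift of all rows. Among them, lnc-EPN2-3 had a mean of 52436 FPKM over 4 libraries and a log2 ratio of means of -1.96. TCONS_00021150 had 21412 FPKM and -2.56. The median log2 difference over all genes tested was 0.09. Usual markers of these lines are protein-coding and were not analysed here. Of 7 human lncRNAs taken as marks of lung epithelium, lymphocytes or stroma, 5 had a row. The passage was through mice, so human rows on hg19 cannot show whether such cells of the host were carried over. The 5 lncRNAs summed to 9.11 and 8.69 FPKM in MDA-MB-231-P3 and 6.53 and 6.88 FPKM in MDA-MB-231. Most of this sum was LINC00261, of epithelial cells, at 7.06 and 7.01 FPKM in MDA-MB-231-P3 and 5.14 and 4.69 FPKM in MDA-MB-231. NKX2-1-AS1 had 0.577 and 0.505 FPKM in MDA-MB-231-P3 and 0.446 and 0.357 FPKM in MDA-MB-231. H19 went the other way, at 0.434 and 0.312 FPKM in MDA-MB-231-P3 and 0.614 and 0.762 FPKM in MDA-MB-231. LINC00926 overlapped between the lines, at 1.05 and 0.859 FPKM in MDA-MB-231-P3 and 0.324 and 1.07 FPKM in MDA-MB-231, and LINC00861 was near 0 in all 4 libraries. The part of these differences in the levels of TMEM132D-AS1 and lnc-GATD1-2 was not tested.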

How the data were processed

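Per the labels' protocols, strand-specific paired-end libraries were made from mRNA fractions, aligned to hg19 with HISAT2 and normalized to FPKM by the authors; the submitters' processing notes also name StringTie. Tool versions, the lncRNA annotation and the use of strand in assigning reads were not stated in the sources used. The deposited FPKM values were the same in the series table and in all 4 per-library files. The depth behind them is unknown, so no counting interval was given.

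Rows were summed per gene name. Genes with a mean of at least 0.5 FPKM entered limma 3.58.1 (R 4.3.3; eBayes with trend, two-sided, MDA-MB-231-P3 minus MDA-MB-231, no block) as log2(FPKM + 0.5), with Benjamini-Hochberg adjustment over 6444 genes and a threshold of 0.05. The 2 chosen genes were part of this fit and its adjustment, but their p-values are not reported. Fold values are ratios of mean FPKM.

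The members, neighbour lists, likeness rule and other settings were chosen with earlier results of these data known. The text names every isoform of note of the 2 genes, genes named for TMEM132D and GATD1, the 3 most abundant neighbours per locus, the 5 genes of nearest pattern and those next to the threshold; lnc-LRRC56-1, lnc-LRRC56-3, MIR210HG and LINC01001 were singled out after their values were seen. Settings tried were pseudocounts of 0.1 and 1, other filters, quantile normalization, centring, no trend, isoform rows, a replicate block and leaving out each library. Coordinates and exon sequences came from GRCh37 with GENCODE release 44, read with Python 3.11.15, and plots used matplotlib 3.10.9.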

Additional observations from a re-analysis of the deposited data

How the results depend on the processing

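Both chosen genes kept their direction in every setting tried. For TMEM132D-AS1 the log2 difference, -3.35 as reported, moved by more than the spread between replicates in some settings: it was -3.53 with a pseudocount of 0.1, -3.16 with a pseudocount of 1, -3.44 with centring, -3.86 for the isoform of highest mean (TMEM132D-AS1:7) and -3.58 as a log2 ratio of means, the last chosen after seeing the data. It was -3.42 to -3.28 without single libraries. For lnc-GATD1-2 the difference was 3.55 to 4.01 without single libraries and moved by less than that spread in the other settings. With the replicate number as a block the differences stayed at -3.35 and 3.78, 0 neighbours were called and 0 genes were called in all, against 4 without it. Same-numbered libraries deviated together little (r = 0.0777 across genes). With 2 libraries per line this correlation cannot settle whether same-numbered libraries were made together, and the labels do not say.

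In every setting with all 4 libraries 0 neighbours were called, with smallest limma adjusted p of 0.438 to 0.716. At most 4 genes were called in all in these settings, so nothing is read from the 0 calls. The median log2 difference of the neighbours was -0.022 with a minimum mean of 1 FPKM and 0.029 to 0.29 without single libraries. The 4 genes called in all were 0 with a pseudocount of 1, without the filter, with isoform rows or without the trend, 2 with quantile normalization, and 0 whichever library was left out, in fits where the lone library of a line is assumed to vary like the other line. Genes over 10-fold higher, 270 as reported, numbered 128 with a minimum of 1 FPKM, 1 with 0.5 FPKM in every library, 8507 without the filter, 426 as isoform rows, 19 on the log2(FPKM + 0.5) scale and 230 to 594 without single libraries. Genes over 10-fold lower, 129 as reported, numbered 63, 3, 4059, 328, 13 and 111 to 307 in the same order. Fewer or more genes were counted under the other filters; otherwise the cause was not tested. Unknown depth and 2 libraries per line limit all of these values.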
